A study of Cyclotella cryptica with 27 samples.

Results

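The step between 2 h and 4 h in freshwater was examined in Cyclotella cryptica CCMP332, a centric diatom, by RNA sequencing of polyA RNA from cells in culture. All cells had grown exponentially in artificial seawater of 24 ppt at 15 °C on a cycle of 16 h light and 8 h dark, and were then centrifuged and resuspended in medium of 0 ppt. The 4 h group had been in that medium for 4 h and the 2 h group for 2 h, both at 15 °C with gentle shaking. The series also holds a seawater control at 24 ppt and freshwater groups at 0, 15 and 30 min and at 1, 8 and 10 h, each with 3 labelled replicates, 27 count columns in all. Only 16 of the 27 columns were independent of the others of their group. Replicate 1 at 4 h equalled the mean of replicates 2 and 3, to within 0.5 counts, for 99.9671% of genes, and replicate 2 at 2 h equalled the mean of replicates 1 and 3 for 99.9765%. The comparison therefore uses 2 columns at 4 h (replicates 2 and 3) against 2 columns at 2 h (replicates 1 and 3). The labels do not say whether replicates were separate cultures, so the p-values measure only the spread between columns, which may be technical. No seawater culture was analysed here at 2 h or 4 h, so time in freshwater, time since handling and time of day cannot be told apart.

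Gene counts summed to 3354037 and 2886872 at 4 h, against 3164256 and 3088729 at 2 h, within a range of 2809130 to 6889349 over the 16 columns. Multiply aligned reads were 19.8% and 29.4% of the gene-aligned reads in the table at 4 h, against 27.3% and 34.1% at 2 h. A single gene without a protein name, CCRYP_005887, held 19.1% and 14.6% of all counts at 4 h, against 23.3% and 19.4% at 2 h, and did not pass the test (log2 fold change -0.39, adjusted p = 0.811). The part of these values in the results was not tested. The cells carried diatom transcripts as labelled: 37 light-harvesting genes, most of them named fucoxanthin-chlorophyll proteins, passed the filter on low counts, and the gene named silicon efflux transporter LSI2 (CCRYP_016289) had 224 and 343 CPM at 4 h, against 248 and 345 CPM at 2 h, where CPM are counts scaled by effective library size. In bulk RNA, fewer cells using a gene and less of its RNA per cell cannot be told apart.

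A eukaryotic cell makes ribosomes in the nucleolus, where ribosomal RNA is transcribed, cut, chemically modified and folded by small nucleolar RNA-protein particles, RNA helicases and assembly GTPases before the subunits are exported to the cytoplasm. In yeast, ribosomal protein genes and the assembly factor genes are known as separate but jointly regulated sets that follow growth conditions and fall in many stresses. A diatom placed in freshwater also has to lose ions and organic osmolytes, since water flows into the cell. Protein names here are the best matches given in the count table, mostly to proteins of other species, and 27.3% of the listed genes have one. Each role below is known from those other species.

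Most of the genes that differed were lower at 4 h, and many of them carry names from ribosome assembly and protein synthesis. Of 12501 genes tested, 250 fell and 21 rose at an adjusted p below 0.05 in edgeR's quasi-likelihood test. Every adjusted p given here comes from that test, adjusted by Benjamini-Hochberg over all genes tested. Every ± is an approximate standard error, the size of the log2 fold change divided by the square root of the test's F statistic. These calls were 2.17% of all genes tested, 2% for falls and 0.168% for rises. The median log2 fold change, 4 h over 2 h, was -1.10 among the genes that fell, 0.95 among those that rose and -0.01 over all genes tested. At least 2-fold falls numbered 156 and at least 4-fold falls 20, while 10 of the 21 rises reached 2-fold. A protein name was attached to 186 of the genes that fell and 7 of those that rose. Both 4 h columns lay on one side of both 2 h columns for all 271 called genes. Since the genes were called on these same columns, this adds no support to the calls. Over all genes tested both 4 h columns lay below for 22.2% and above for 16.7%.

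**Figure D1:**
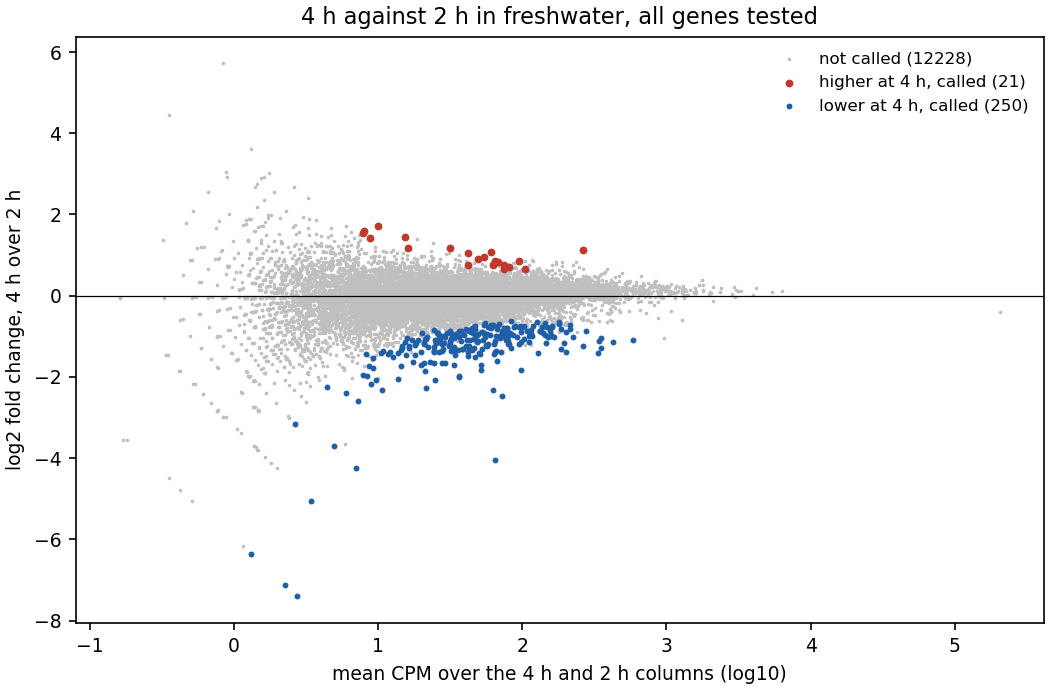
Each point is 1 of the genes tested, by its mean CPM over the 4 columns (log10, horizontal) and its log2 fold change, 4 h over 2 h (vertical); 2 genes with no count in any of the 4 columns are not drawn. The 250 genes called lower spread over most of the range of abundance, and the 21 called higher lie nearer to 0.

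The number of calls depended on single columns, over all genes tested as within lists. Each fit that left out a column had 1 column in a group. Counts for a list in such fits are to be read beside the counts over all genes given next. Without replicate 2 at 4 h, 34 genes were called (33 lower), and without replicate 3 at 4 h, 411 (267 lower and 144 higher). Leaving out replicate 1 at 2 h gave 137 calls (128 lower), and leaving out replicate 3 at 2 h gave 118 (116 lower). All 271 genes kept their direction in each of these 4 fits, and 25 genes, all lower at 4 h, were called in each of them; they are marked below as called with any column left out.

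Among called genes with a protein name and a mean of at least 20 counts at 2 h, the 15 largest falls included the following. The gene named chloroplastic glutamine synthetase (CCRYP_011559), which joins ammonium to glutamate, had 13.9 and 27.9 CPM at 4 h, against 104 and 103 CPM at 2 h (log2 fold change -2.33 ± 0.29, adjusted p = 0.000254). Its level was 171 CPM at 1 h and 40.8 CPM in the seawater column, so both 4 h columns lay below the seawater level, and it was lower again with 5.39 and 10.8 CPM at 8 h (8 h over 4 h, log2 fold change -1.37, adjusted p = 0.043; 2.81% of all genes tested were called lower in that comparison). The uncharacterised protein C9orf85 (CCRYP_019702) had 6.48 and 8.19 CPM at 4 h, against 34.5 and 36.1 CPM at 2 h (log2 fold change -2.27 ± 0.27, adjusted p = 3.32e-05). Phosphoserine aminotransferase (CCRYP_007910), an enzyme of serine synthesis, had 8.94 and 10.05 CPM at 4 h, against 35.8 and 44.8 CPM at 2 h (log2 fold change -2.09 ± 0.29, adjusted p = 0.000254). FAM136A (CCRYP_020229), a mitochondrial protein in animals, had 15.4 and 13.4 CPM at 4 h, against 53.1 and 63.6 CPM at 2 h (log2 fold change -2.01 ± 0.27, adjusted p = 0.00019). All 4 were called with any column left out, and in each the higher 4 h column was far below the lower 2 h column.

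Cold shock protein 2 (CCRYP_011039), a nucleic acid-binding protein in plants, had 37.3 and 49.1 CPM at 4 h, against 148 and 159 CPM at 2 h (log2 fold change -1.83 ± 0.23, adjusted p = 0.000109). The 13 kDa ribonucleoprotein-associated protein (CCRYP_011652), a component of U3 and U4 RNA particles in yeast, had 15.7 and 15.6 CPM at 4 h, against 45.3 and 56.7 CPM at 2 h (log2 fold change -1.70 ± 0.26, adjusted p = 0.000563). Glyceraldehyde-3-phosphate dehydrogenase (CCRYP_005174), an enzyme of glycolysis, had 21.3 and 24.2 CPM at 4 h, against 56.8 and 105 CPM at 2 h (log2 fold change -1.83 ± 0.32, adjusted p = 0.00529). In all 3 genes each 4 h column was more than 2-fold below each 2 h column, and the cold shock protein and the 13 kDa protein were called with any column left out. The remaining genes among these 15 were hemicentin-1, 8-amino-7-oxononanoate synthase, phosphomannomutase, histone H2B (CCRYP_020845), the phosphatase IMPL2, IMP3, CBSX3 and a gene named UfaA1, with log2 fold changes between -2.60 and -1.71. Hemicentin-1 (CCRYP_018343) was the lowest of them, with 2.16 and 1.86 CPM at 4 h, against 11.5 and 13.4 CPM at 2 h (log2 fold change -2.60 ± 0.57, adjusted p = 0.0135), and lost its call in all 4 fits that left out a column. A pair of named genes below that count limit had lower estimates, Copia protein (CCRYP_006640), described further on, and N-acetylglucosamine-6-O-sulfatase (CCRYP_015196), which had 2 and 1 counts at 4 h, against 9 and 18 counts at 2 h.

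Ribosome assembly genes supplied many of the falls. Of 84 tested genes named for ribosome biogenesis, 21 fell and 0 rose, 25% against the 2% of all genes, with a median log2 fold change of -0.52 against -0.01. Both 4 h columns lay below both 2 h columns in 55 of the 84, or 65.5%, against 22.2% of all genes tested. The nucleolar phosphoprotein that interacts with the FHA domain of MKI67 (CCRYP_007731), which binds precursor ribosomal RNA, had 12.3 and 16.00 CPM at 4 h, against 45.6 and 43.4 CPM at 2 h (log2 fold change -1.66 ± 0.25, adjusted p = 0.000494). Pescadillo (CCRYP_015093), which acts in maturation of the large subunit, had 64.8 and 57.7 CPM at 4 h, against 139.9 and 129 CPM at 2 h (log2 fold change -1.13 ± 0.18, adjusted p = 0.000694). TSR1 (CCRYP_018154), a factor of late small-subunit assembly, had 19.1 and 21.2 CPM at 4 h, against 51.7 and 50.6 CPM at 2 h (log2 fold change -1.34 ± 0.21, adjusted p = 0.000708). These 3 genes were called with any column left out, and in each the 2 columns of a group differed little.

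The small-subunit side was further represented by nob1 (CCRYP_016311), the endonuclease that makes the last cut of small-subunit RNA, with 22.2 and 33.1 CPM at 4 h, against 77.05 and 68.6 CPM at 2 h (log2 fold change -1.41 ± 0.24, adjusted p = 0.00133). IMP3 (CCRYP_004473), a protein of the U3 particle that starts small-subunit processing, had 7.71 and 5.58 CPM at 4 h, against 19.3 and 25.3 CPM at 2 h (log2 fold change -1.72 ± 0.32, adjusted p = 0.00335). On the large-subunit side, the 28S rRNA cytosine methyltransferase (CCRYP_013086) had 20.05 and 27.2 CPM at 4 h, against 60.5 and 61.4 CPM at 2 h (log2 fold change -1.38 ± 0.22, adjusted p = 0.000694). In all 3 each 4 h column was more than 2-fold below each 2 h column. The other members that fell included BRX1, NSA2, RPF2, NEP1, spb1, rrp5, the nucleolar proteins 5-1 and 56 and both nucleolar GTP-binding proteins. The members of highest abundance did not pass. Nucleolar protein 14 (CCRYP_016131) had 130.5 and 149 CPM at 4 h, against 234 and 202 CPM at 2 h (log2 fold change -0.64, adjusted p = 0.056). A large-subunit rRNA methyltransferase (CCRYP_011835) had 153 and 188 CPM at 4 h, against 152 and 184 CPM at 2 h (log2 fold change 0.02, adjusted p = 0.983). Without replicate 2 at 4 h, 5 of the 84 were called, against 0.264% of all genes called lower in that fit, and the median was -0.52; in the other 3 fits 12 to 21 were called.

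Several further assembly factors fell that the list's words did not catch, and they are named after their values were seen. NMD3 (CCRYP_004503), the adaptor for export of the large subunit, had 24.7 and 41.7 CPM at 4 h, against 113 and 86.3 CPM at 2 h (log2 fold change -1.60 ± 0.22, adjusted p = 0.000237) and was called with any column left out. Protein gar2 (CCRYP_005095), a nucleolar protein of fission yeast, had 104 and 118 CPM at 4 h, against 293 and 285 CPM at 2 h (log2 fold change -1.38 ± 0.20, adjusted p = 0.000374) and was also called with any column left out. The GTPase LSG1 (CCRYP_007983), the assembly ATPase midasin (CCRYP_013752), bystin (CCRYP_001995), MAK16 (CCRYP_018133) and PNO1 (CCRYP_000779) fell too, with log2 fold changes of -0.96, -0.81, -0.88, -1.20 and -1.24. Unlike NMD3 and gar2, they do not belong to the genes called with any column left out.

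Ribosomal proteins of the cytosol showed the most uniform shift. Of 76 tested genes, 23 fell and 0 rose (30.3%, against 2% of all genes), and the median log2 fold change was -0.70. Estimates were below 0 for 75 of the 76 (98.7%), against 50.8% of all genes tested. Both 4 h columns lay below both 2 h columns in 72 of the 76 (94.7%), against 22.2% of all genes tested. L10a (CCRYP_008775), a protein of the large subunit, had 346 and 406 CPM at 4 h, against 819 and 789 CPM at 2 h (log2 fold change -1.10 ± 0.22, adjusted p = 0.00654). S12 (CCRYP_005769), of the small subunit, had 167 and 242 CPM at 4 h, against 513 and 487 CPM at 2 h (log2 fold change -1.29 ± 0.21, adjusted p = 0.000736). S2 (CCRYP_002796), also of the small subunit, had 196 and 236 CPM at 4 h, against 458 and 478 CPM at 2 h (log2 fold change -1.12 ± 0.22, adjusted p = 0.00473). The 2 h columns of these 3 genes were close to each other, and of the 4 h columns replicate 2 was the lower in each.

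L27a (CCRYP_000449) had 117 and 196 CPM at 4 h, against 375 and 363 CPM at 2 h (log2 fold change -1.24 ± 0.24, adjusted p = 0.00494). L7 (CCRYP_004539) had 28.7 and 30.5 CPM at 4 h, against 64.9 and 59.97 CPM at 2 h (log2 fold change -1.08 ± 0.21, adjusted p = 0.00405). The first of 2 genes named S26-B (CCRYP_019343) had 8.64 and 13.4 CPM at 4 h, against 27.04 and 29.98 CPM at 2 h (log2 fold change -1.39 ± 0.27, adjusted p = 0.00473). The second S26-B gene (CCRYP_011521) had 37.01 and 63.3 CPM at 4 h, against 108 and 109 CPM at 2 h (log2 fold change -1.12 ± 0.24, adjusted p = 0.0121). Reads that aligned to both S26-B genes were not counted for either, so both may be undercounted. S3a (CCRYP_013129), among the most abundant members, had 389.8 and 429 CPM at 4 h, against 571 and 514 CPM at 2 h and did not pass (log2 fold change -0.41, adjusted p = 0.285). For each pairing of a 4 h column with a 2 h column, the median log2 ratio over the 76 genes lay between -0.99 and -0.51. In these pairings 73 to 75 of the genes were lower at 4 h, against 6323 to 6912 of the 12501 genes tested. The calls were less even than the shift: without replicate 2 at 4 h, 0 of the 76 were called, without replicate 3 at 4 h, 35, and without replicate 1 or 3 at 2 h, 6 and 7. The median over the list was between -0.92 and -0.53 in those fits.

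**Figure D2:**
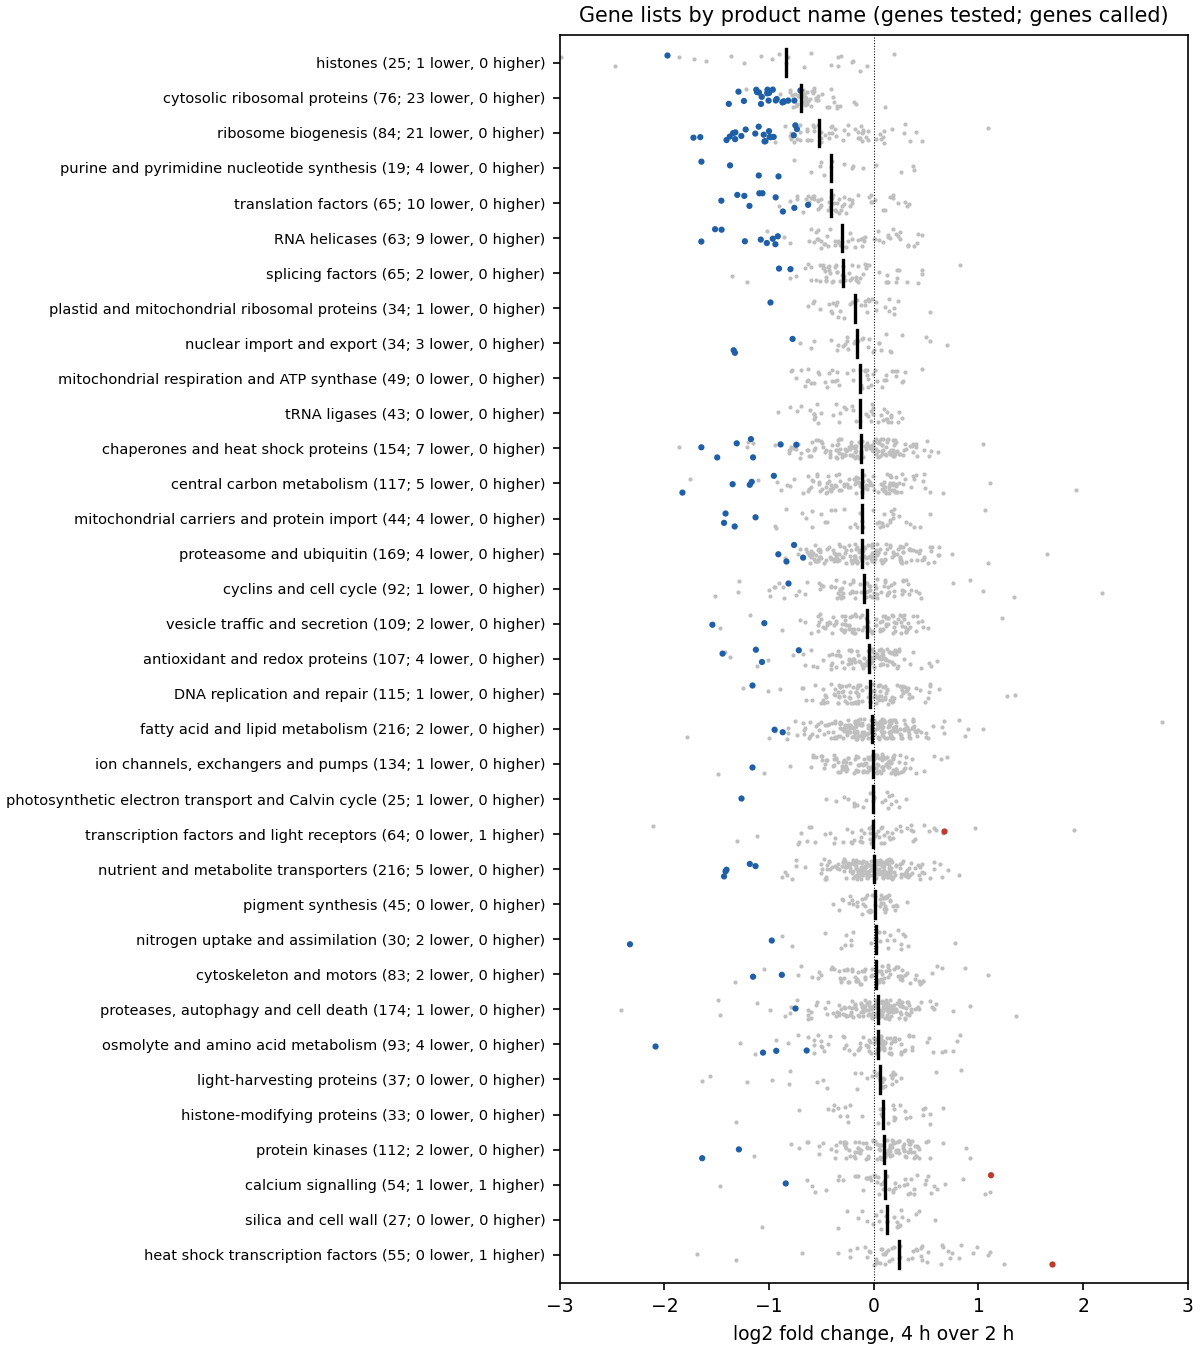
Each row is a list of genes chosen by words in their protein names, and each point a tested gene by its log2 fold change, 4 h over 2 h (blue, called lower; red, called higher; grey, not called); black bars are medians, and 2 points lie outside the axis. Histones, cytosolic ribosomal proteins and ribosome biogenesis have the lowest medians, -0.84, -0.70 and -0.52, while most other lists have medians close to 0.

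Some RNA helicases and translation factors also fell, in smaller numbers. Of 63 RNA helicases, enzymes that unwind RNA in ribosome assembly, splicing and decay, 9 fell and 0 rose (14.3%), with a median log2 fold change of -0.31. DEAD-box helicase 26 (CCRYP_002012) had 20.4 and 28.7 CPM at 4 h, against 75.7 and 63.6 CPM at 2 h (log2 fold change -1.52 ± 0.23, adjusted p = 0.000494) and was called with any column left out. DDX47 (CCRYP_005080), a helicase of ribosomal RNA processing, had 8.64 and 11.5 CPM at 4 h, against 31.8 and 31.1 CPM at 2 h (log2 fold change -1.65 ± 0.31, adjusted p = 0.0034). MTR4 (CCRYP_000925), the helicase of the nuclear exosome, had 33.3 and 32.7 CPM at 4 h, against 66.6 and 62.5 CPM at 2 h (log2 fold change -0.97 ± 0.19, adjusted p = 0.00405). The 4 h columns were below the 2 h columns by a wide margin in each. The most abundant helicase, the chloroplast DEAD-box helicase 3 (CCRYP_006934), had 539 and 727 CPM at 4 h, against 629.6 and 746 CPM at 2 h, overlapping columns, and did not pass (log2 fold change -0.12, adjusted p = 0.857). Leaving out replicate 2 at 4 h left 1 helicase called, and the other 3 fits called 6 to 9.

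Of 65 translation factors, 10 fell and 0 rose (15.4%), with a median of -0.41. Members of initiation factor 3, the complex that loads the small subunit with messenger RNA, supplied 4 of them. Subunit H (CCRYP_003257) had 15.4 and 21.2 CPM at 4 h, against 41.6 and 58.5 CPM at 2 h (log2 fold change -1.46 ± 0.25, adjusted p = 0.00124). Subunit I (CCRYP_012462) had 33.6 and 26.8 CPM at 4 h, against 53.7 and 73.3 CPM at 2 h (log2 fold change -1.06 ± 0.20, adjusted p = 0.00401). In both, the 4 h columns lay well below the 2 h columns. Subunit B (CCRYP_013570) had 46.9 and 55.8 CPM at 4 h, against 94.3 and 92.8 CPM at 2 h (log2 fold change -0.87 ± 0.17, adjusted p = 0.00499). Subunit D (CCRYP_012978) had 104 and 115 CPM at 4 h, against 178 and 193 CPM at 2 h (log2 fold change -0.76 ± 0.16, adjusted p = 0.00823). Elongation factor 3 (CCRYP_004675), a factor best known from fungi, had 47.2 and 51.7 CPM at 4 h, against 106 and 105 CPM at 2 h (log2 fold change -1.09 ± 0.21, adjusted p = 0.0034) and was lower again with 26.7 and 21.9 CPM at 8 h (8 h over 4 h, log2 fold change -1.02, adjusted p = 0.00757). Elongation factor 1-alpha (CCRYP_004609), which brings aminoacyl-tRNA to the ribosome, had 1049.5 and 986 CPM at 4 h, against 1466 and 1629.7 CPM at 2 h and did not pass (log2 fold change -0.60, adjusted p = 0.189), although its columns did not overlap. Only 1 translation factor was called without replicate 2 at 4 h, against 4, 6 and 10 in the other 3 fits.

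Hardly any gene that loads transfer RNA, or of the organelle ribosomes, passed the test. None of 43 tRNA ligases passed (0 lower, 0 higher), with a median of -0.13. Both 4 h columns lay below both 2 h columns in 41.9% of these ligases, against 22.2% of all genes tested. Of 34 plastid and mitochondrial ribosomal proteins 1 fell, the 50S protein L28 (CCRYP_002491), with 38.9 and 53.2 CPM at 4 h, against 76.4 and 106 CPM at 2 h (log2 fold change -0.99 ± 0.23, adjusted p = 0.0192), and the median was -0.18; L28 was not called without replicate 2 at 4 h or without replicate 3 at 2 h. In 38.2% of the 34 organelle ribosomal proteins both 4 h columns lay below both 2 h columns. The abundant 30S protein S1 (CCRYP_001578) had 394 and 475 CPM at 4 h, against 381 and 499 CPM at 2 h, with overlapping columns (log2 fold change -0.02, adjusted p = 0.989). A p above the threshold does not show that these genes were the same at both times. Some genes named as organelle translation factors were called lower, and they are named after their values were seen. They were the mitochondrial elongation factors G (CCRYP_003744) and Ts 2 (CCRYP_010548), with log2 fold changes of -1.24 and -1.19. Chloroplastic elongation factor Tu (CCRYP_013460) and mitochondrial ribosome-releasing factor 2 (CCRYP_018667) had -0.94 and -0.91. Organelle factors were not counted as a set.

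The lists of nucleotide synthesis and nuclear transport were added after values were seen. Their shares of falls therefore cannot be compared with the 2% of all genes and are given as descriptions. Of 19 genes of purine and pyrimidine synthesis, 4 fell and 0 rose (21.1%), with a median of -0.41. Adenylosuccinate lyase (CCRYP_008512), which acts in purine synthesis, had 13.3 and 13.4 CPM at 4 h, against 38.5 and 45.2 CPM at 2 h (log2 fold change -1.65 ± 0.25, adjusted p = 0.000494) and was called with any column left out. GMP synthase (CCRYP_006732) had 12.6 and 16.7 CPM at 4 h, against 38.5 and 37.2 CPM at 2 h (log2 fold change -1.37 ± 0.25, adjusted p = 0.00319). Inosine-5'-monophosphate dehydrogenase (CCRYP_010483), the step before GMP synthase, had 24.98 and 30.5 CPM at 4 h, against 56.8 and 61.8 CPM at 2 h (log2 fold change -1.10 ± 0.21, adjusted p = 0.00393). The columns of each time lay close together in these 3 genes. Orotate phosphoribosyltransferase (CCRYP_003584), of pyrimidine synthesis, had 58.3 and 54.3 CPM at 4 h, against 125 and 86.7 CPM at 2 h (log2 fold change -0.91 ± 0.19, adjusted p = 0.00786), with a wider spread at 2 h. Carbamoyl-phosphate synthase (CCRYP_006947), the most abundant member, had 273 and 283 CPM at 4 h, against 218 and 245 CPM at 2 h and did not pass (log2 fold change 0.26, adjusted p = 0.587). Over the list, 1 gene was called lower without replicate 2 at 4 h and 4 in each of the other 3 fits. Orotate phosphoribosyltransferase was not called without replicate 2 at 4 h or without replicate 1 at 2 h.

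Of 34 genes of nuclear import and export, 3 fell (8.82%). Importin beta-4 (CCRYP_000504), a carrier that takes ribosomal proteins and histones into the nucleus in yeast, had 24.7 and 26.4 CPM at 4 h, against 58.1 and 71.2 CPM at 2 h (log2 fold change -1.34 ± 0.20, adjusted p = 0.000413) and was called with any column left out. Transportin-1 (CCRYP_016608), another import carrier, had 21.3 and 27.2 CPM at 4 h, against 49.3 and 71.9 CPM at 2 h (log2 fold change -1.33 ± 0.24, adjusted p = 0.00222). The Ran-specific GTPase-activating protein (CCRYP_015199), which helps to release cargo, had 63.2 and 65.5 CPM at 4 h, against 103 and 118 CPM at 2 h (log2 fold change -0.78 ± 0.19, adjusted p = 0.0219). Of these 3, 1 was called without replicate 2 at 4 h and 1 without replicate 3 at 2 h.

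Amino acid and carbon metabolism contributed single enzymes, not whole pathways. Of 30 nitrogen uptake and assimilation genes 2 fell, both glutamine synthetases, and the list's median was 0.02. The type-3 glutamine synthetase (CCRYP_021158) had 94.7 and 119 CPM at 4 h, against 202 and 217 CPM at 2 h (log2 fold change -0.97 ± 0.19, adjusted p = 0.00369). Ferredoxin-dependent glutamate synthase 2 (CCRYP_017107), the partner enzyme that uses glutamine, had 609 and 756 CPM at 4 h, against 587 and 730.1 CPM at 2 h (log2 fold change 0.05, adjusted p = 0.95). Ammonium transporter 2 (CCRYP_001881) had 247 and 347 CPM at 4 h, against 256 and 314 CPM at 2 h (log2 fold change 0.06, adjusted p = 0.938). The columns of the synthase and the transporter overlapped between the times. The fit without replicate 2 at 4 h called 1 nitrogen gene, and the other 3 fits 2 or 3.

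Of 93 genes of osmolyte and amino acid metabolism, 4 fell (4.3%) and the median was 0.04. They were phosphoserine aminotransferase, serine hydroxymethyltransferase 4 (CCRYP_000695), argininosuccinate synthase (CCRYP_019729) and argininosuccinate lyase (CCRYP_012659). The hydroxymethyltransferase, which converts serine to glycine, had 130.5 and 150.4 CPM at 4 h, against 204 and 233 CPM at 2 h (log2 fold change -0.64 ± 0.16, adjusted p = 0.0335). The synthase and the lyase, successive steps of arginine synthesis, had log2 fold changes of -0.93 and -1.06, with adjusted p of 0.0192 and 0.0214. The most abundant member, a mitochondrial alanine aminotransferase (CCRYP_005263), had 1465 and 1875 CPM at 4 h, against 1252 and 1674 CPM at 2 h and did not pass (log2 fold change 0.19, adjusted p = 0.79). The list had 1 call without replicate 2 at 4 h and 1 without replicate 3 at 2 h.

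Of 117 genes of central carbon metabolism, 5 fell (4.27%), all with names from glycolysis or its exit, and the median was -0.12. Besides the dehydrogenase above, a second gene named glyceraldehyde-3-phosphate dehydrogenase (CCRYP_005175) had 15.7 and 20.5 CPM at 4 h, against 40.9 and 50.9 CPM at 2 h (log2 fold change -1.35 ± 0.26, adjusted p = 0.00414). Any reads that aligned to both genes of this name were not counted for either. Pyruvate kinase (CCRYP_018508), the last step of glycolysis, had 18.8 and 20.1 CPM at 4 h, against 43.6 and 43.7 CPM at 2 h (log2 fold change -1.17 ± 0.24, adjusted p = 0.00641). Enolase 2 (CCRYP_018509) had 44.4 and 53.6 CPM at 4 h, against 82.1 and 141 CPM at 2 h (log2 fold change -1.19 ± 0.26, adjusted p = 0.0154), with its 2 h columns far apart. A component of pyruvate dehydrogenase (CCRYP_009984) had 16.3 and 19.7 CPM at 4 h, against 30.4 and 39.4 CPM at 2 h (log2 fold change -0.96 ± 0.23, adjusted p = 0.0202). The most abundant enzymes had positive estimates without passing the test. Phosphoenolpyruvate carboxykinase (CCRYP_017838) had 1860.3 and 2110.1 CPM at 4 h, against 1462 and 1579.8 CPM at 2 h (log2 fold change 0.38, adjusted p = 0.393). Pyruvate carboxylase (CCRYP_010390) had 1159.9 and 1486 CPM at 4 h, against 1007 and 1259 CPM at 2 h (log2 fold change 0.22, adjusted p = 0.749). Both were above the seawater column, which had 969 and 368 CPM. Of the 117, 0 were called without replicate 2 at 4 h and 2 without replicate 3 at 2 h.

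Few transport genes passed the test. Of 216 nutrient and metabolite transporters, 5 fell (2.31%, close to the 2% of all genes) and the median was 0.00. The ADP,ATP carrier (CCRYP_018686), which exchanges ADP for ATP, had 162 and 203 CPM at 4 h, against 438 and 537 CPM at 2 h (log2 fold change -1.42 ± 0.23, adjusted p = 0.000756). A triose phosphate/phosphate translocator (CCRYP_001190) had 64.8 and 76.3 CPM at 4 h, against 228 and 145 CPM at 2 h (log2 fold change -1.41 ± 0.22, adjusted p = 0.000736). Both were called with any column left out, and the translocator's 2 h columns were far apart. The mitochondrial phosphate carrier (CCRYP_005459) had 61.99 and 78.9 CPM at 4 h, against 142 and 165 CPM at 2 h (log2 fold change -1.13 ± 0.23, adjusted p = 0.00859). A second, also abundant ADP,ATP carrier (CCRYP_013905) had 334 and 375 CPM at 4 h, against 369 and 406 CPM at 2 h, overlapping columns, and did not pass (log2 fold change -0.13, adjusted p = 0.828). In a list of 44 mitochondrial carriers and import proteins that was added after values were seen, 4 fell (9.09%), among them the import protein TIM14-3 (CCRYP_017453; log2 fold change -1.33, adjusted p = 0.0199). Omitting replicate 2 at 4 h, 2 transporters and 1 of the mitochondrial list were called, and without replicate 3 at 2 h, 2 and 2.

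Of 134 ion channels, exchangers and pumps, 1 fell and 0 rose (0.746%), with a median of -0.01. It was the probable proton ATPase 1B (CCRYP_019860), a pump that moves protons across a membrane at the cost of ATP, with 122 and 119 CPM at 4 h, against 251 and 290.1 CPM at 2 h (log2 fold change -1.16 ± 0.18, adjusted p = 0.000563). It was called with any column left out, its level was 609 CPM at 1 h and 125 CPM in the seawater column, and it had 78.2 and 99.7 CPM at 8 h. A gene named sodium/sulfate cotransporter 3 (CCRYP_016753) had 658 and 597 CPM at 4 h, against 1118 and 1487 CPM at 2 h and did not pass (log2 fold change -1.05, adjusted p = 0.476), with a standard error of 0.56 on the log2 scale.

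Folding and redox proteins fell singly. Of 154 chaperones and heat shock proteins, 7 fell and 0 rose (4.55%), with a median of -0.13. Heat shock cognate 70 kDa protein 1 (CCRYP_020418) had 19.1 and 25.3 CPM at 4 h, against 61.8 and 62.9 CPM at 2 h (log2 fold change -1.50 ± 0.24, adjusted p = 0.000694) and was called with any column left out. The mitochondrial chaperonin CPN60 (CCRYP_004345) had 77.7 and 101 CPM at 4 h, against 181 and 221 CPM at 2 h (log2 fold change -1.17 ± 0.20, adjusted p = 0.00157). The theta subunit of the cytosolic chaperonin (CCRYP_010449), which folds actin and tubulin, had 17.9 and 14.1 CPM at 4 h, against 33.1 and 46.96 CPM at 2 h (log2 fold change -1.31 ± 0.27, adjusted p = 0.00739). Actin itself (CCRYP_000985) had 94.99 and 91.2 CPM at 4 h, against 161 and 182 CPM at 2 h (log2 fold change -0.88 ± 0.19, adjusted p = 0.00786). The most abundant member named as a 70 kDa heat shock protein (CCRYP_004580) had 691 and 809.8 CPM at 4 h, against 785 and 976 CPM at 2 h, with overlapping columns (log2 fold change -0.23, adjusted p = 0.674). Chaperone calls numbered 1 without replicate 2 at 4 h and 2 without replicate 3 at 2 h.

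Of 107 antioxidant and redox proteins 4 fell (3.74%), with a median of -0.04. They included 2 genes named glutathione S-transferase, which join glutathione to other molecules. The gene CCRYP_019608 had 24.7 and 29.8 CPM at 4 h, against 78.7 and 69.00 CPM at 2 h (log2 fold change -1.45 ± 0.24, adjusted p = 0.001). The gene CCRYP_019751 had 26.5 and 35.4 CPM at 4 h, against 73.3 and 61.1 CPM at 2 h (log2 fold change -1.13 ± 0.22, adjusted p = 0.00462). L-ascorbate peroxidase 3 (CCRYP_013907) had 485 and 724 CPM at 4 h, against 607 and 733 CPM at 2 h and did not pass (log2 fold change -0.15, adjusted p = 0.819). Of 169 proteasome and ubiquitin genes 4 fell (2.37%), each coding for a proteasome subunit, with log2 fold changes between -0.91 and -0.68. The lid subunit 14 (CCRYP_019843), which removes ubiquitin chains, had 31.8 and 31.3 CPM at 4 h, against 59.5 and 59.2 CPM at 2 h (log2 fold change -0.91 ± 0.20, adjusted p = 0.00866). Without replicate 2 at 4 h, 0 redox and 0 proteasome genes were called; without replicate 1 at 2 h, 1 and 0, and without replicate 3 at 2 h, 2 and 1.

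Histones had the lowest median of all lists, -0.84 over 25 tested genes. Of the estimates 24 were below 0 (96%, against 50.8% of all genes tested), but only 1 gene was called. It was a histone H2B (CCRYP_020845) with 3.08 and 3.72 CPM at 4 h, against 16.2 and 10.5 CPM at 2 h (log2 fold change -1.98 ± 0.44, adjusted p = 0.0132), at few counts. This H2B does not belong to the genes called with any column left out, and its log2 fold change lay between -2.25 and -1.62 in those fits. The histone median lay between -1.13 and -0.65 in them. Without replicate 1 at 2 h it was -0.65, above the -0.76 of cytosolic ribosomal proteins. The abundant histones had values nearer to 0. H3.3 (CCRYP_003313) had 161 and 218 CPM at 4 h, against 197 and 199.8 CPM at 2 h (log2 fold change -0.07, adjusted p = 0.914). A second H2B (CCRYP_017455) had 96.5 and 114 CPM at 4 h, against 110.2 and 132 CPM at 2 h (log2 fold change -0.20, adjusted p = 0.704). Histone genes exist in near-identical copies, so reads aligned to more than 1 of them were not counted. The lists of cell cycle genes and of DNA replication and repair each held 1 fall, of 92 and 115 genes, and medians of -0.09 and -0.04.

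Only 7 of the genes that rose have a protein name, and no list held more than 1 of them. Heat shock factor protein 1 (CCRYP_001763), a transcription factor that binds heat shock elements, had 19.7 and 10.8 CPM at 4 h, against 5.07 and 4.34 CPM at 2 h (log2 fold change 1.70 ± 0.39, adjusted p = 0.0145). Annexin A13 (CCRYP_003673), a protein that binds membrane lipids in the presence of calcium, had 487 and 240.04 CPM at 4 h, against 173 and 162 CPM at 2 h (log2 fold change 1.12 ± 0.24, adjusted p = 0.00866). The hybrid histidine kinase G (CCRYP_014899), a sensor kinase of slime mould, had 99.6 and 66.2 CPM at 4 h, against 47.99 and 30.7 CPM at 2 h (log2 fold change 1.08 ± 0.23, adjusted p = 0.00977). In all 3 genes both 4 h columns were above both 2 h columns, and replicate 2 was the higher 4 h column by a wide margin.

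Purine nucleoside phosphorylase (CCRYP_012726), of nucleoside salvage, had 95.6 and 69.6 CPM at 4 h, against 45.3 and 46.96 CPM at 2 h (log2 fold change 0.84 ± 0.22, adjusted p = 0.0395). A type I inositol polyphosphate-4-phosphatase (CCRYP_000621), which acts on membrane phosphoinositides, had 101 and 72.2 CPM at 4 h, against 57.1 and 40.1 CPM at 2 h (log2 fold change 0.83 ± 0.21, adjusted p = 0.0261). The peroxide stress histidine kinase mak3 (CCRYP_015795) had 112 and 88.9 CPM at 4 h, against 68.6 and 55.6 CPM at 2 h (log2 fold change 0.70 ± 0.18, adjusted p = 0.0384). Myb-like protein P (CCRYP_017739) had 144 and 112 CPM at 4 h, against 86.8 and 74.4 CPM at 2 h (log2 fold change 0.67 ± 0.18, adjusted p = 0.0466). All 21 rises, named and unnamed, lost their call in at least 2 of the 4 fits that left out a column, and none was called in all 4.

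**Figure D3:**
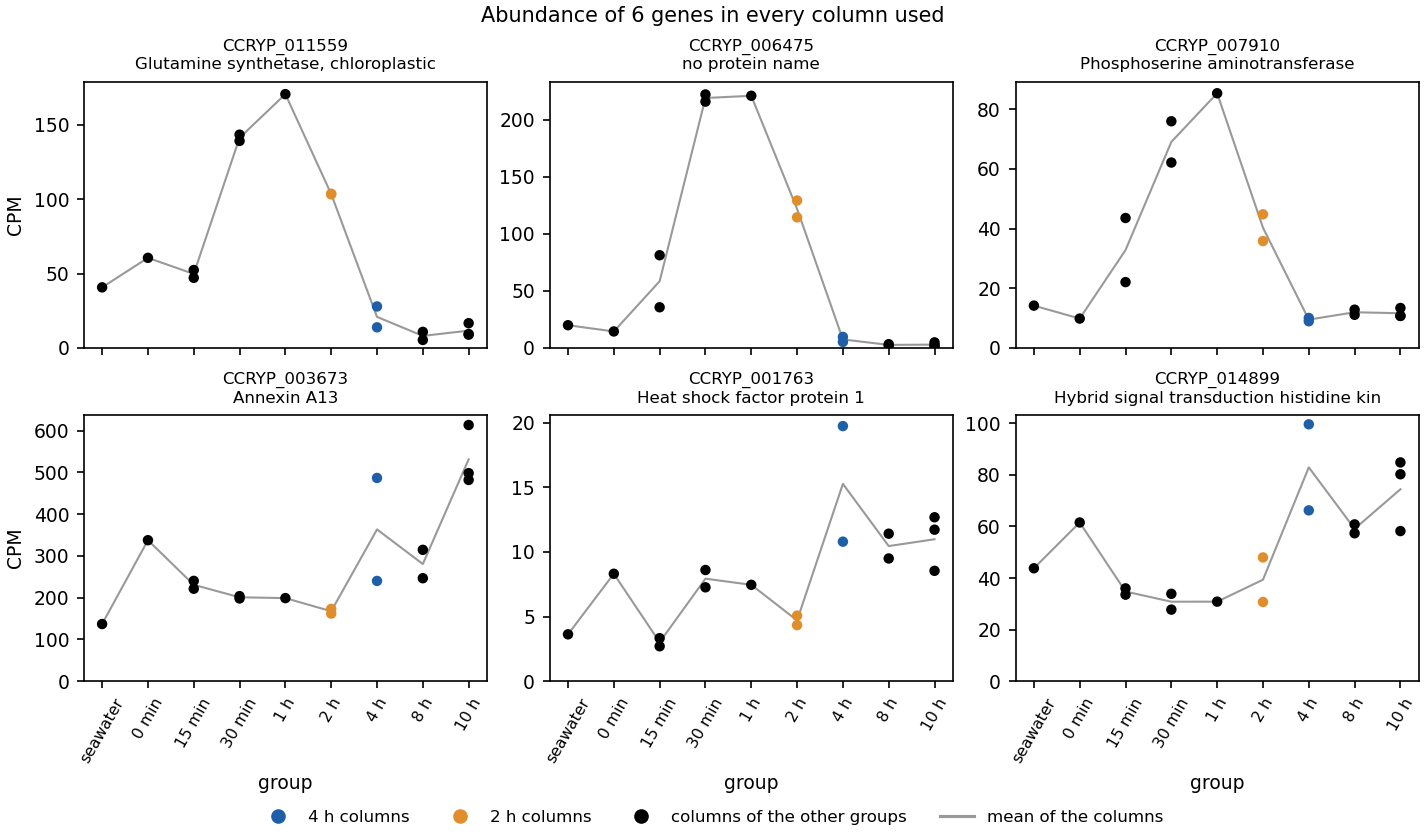
CPM of 6 genes (vertical, linear axes that differ between panels) in each of the 16 columns, with groups evenly spaced in time order and the line joining group means; blue marks 4 h and orange 2 h. The 3 upper genes stand highest at 30 min or 1 h and are low at 4 h, and the 3 lower genes are higher at 4 h than at 2 h, with replicate 2 above replicate 3.

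Heat shock transcription factors are a large family in diatoms, and 1 of them passed. Of 55 tested, 1 rose and 0 fell (1.82%), the median log2 fold change was 0.24, and both 4 h columns lay above both 2 h columns in 21, beside 16.7% of all genes tested. That median was 0.04 without replicate 2 at 4 h, against 0.48 when replicate 3 at 4 h was left out. The most abundant factor (CCRYP_015707) had 658 and 586 CPM at 4 h, against 675 and 626 CPM at 2 h, with overlapping columns (log2 fold change -0.07, adjusted p = 0.921). The factor named A-1a (CCRYP_018596) had 331 and 355 CPM at 4 h, against 321 and 339.6 CPM at 2 h (log2 fold change 0.05, adjusted p = 0.938). Of 54 calcium signalling genes 1 rose, annexin A13, and 1 fell, a calmodulin-dependent kinase (CCRYP_015984; log2 fold change -0.84, adjusted p = 0.0481). Of 112 other kinases 2 fell, and their median was 0.10.

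Few photosynthesis genes passed the test. None of 37 light-harvesting genes passed (median 0.06), and none of 45 pigment synthesis genes (median 0.01). The test called 1 of 25 genes in the list of photosynthetic electron transport and the Calvin cycle. Its protein name is ferredoxin-NADP reductase, root isozyme, chloroplastic (CCRYP_012235). It had 9.87 and 16.4 CPM at 4 h, against 27.04 and 35.8 CPM at 2 h (log2 fold change -1.27 ± 0.26, adjusted p = 0.00704). Its log2 fold change lay between -1.66 and -0.94 in the fits that left out a column. The list took this gene by its name, and whether it serves photosynthesis was not tested. The fucoxanthin-chlorophyll protein CCRYP_011041, one of the proteins that collect light for photosynthesis, had 1064 and 998 CPM at 4 h, against 831 and 947 CPM at 2 h (log2 fold change 0.21, adjusted p = 0.731). A second such gene, CCRYP_001468, had 702 and 917 CPM at 4 h, against 587 and 838 CPM at 2 h (log2 fold change 0.18, adjusted p = 0.791). Oxygen-evolving enhancer protein 1 (CCRYP_005336) had 997 and 1225 CPM at 4 h, against 908 and 1129 CPM at 2 h (log2 fold change 0.12, adjusted p = 0.855). All 3 were lower at both times than the seawater column, which had 1355, 1299.9 and 1779.99 CPM. Without replicate 3 at 4 h, 2 light-harvesting genes were called lower, and without replicate 1 at 2 h, 3. Neither did any gene pass among 27 silica and cell wall genes, 33 histone-modifying proteins or 49 genes of mitochondrial respiration and ATP synthase, whose medians were 0.12, 0.09 and -0.14.

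The other lists held few calls. Of 65 splicing factors 2 fell and the median was -0.30. Estimates were below 0 for 51 of the 65 (78.5%), against 50.8% of all genes tested. Both 4 h columns lay below both 2 h columns in 36 of them (55.4%), against 22.2% of all genes tested. Splicing factor 3A subunit 3 (CCRYP_010747), a part of the U2 particle, had 39.2 and 36.1 CPM at 4 h, against 66.9 and 74.4 CPM at 2 h (log2 fold change -0.91 ± 0.18, adjusted p = 0.00494). Sm D3 (CCRYP_016759), a core protein of the splicing particles, had 38.9 and 26.8 CPM at 4 h, against 59.5 and 55.3 CPM at 2 h (log2 fold change -0.80 ± 0.22, adjusted p = 0.0494). Of 83 genes of cytoskeleton and motors 2 fell, actin and a myosin-10 (CCRYP_006620; log2 fold change -1.15, adjusted p = 0.0152), with a median of 0.02. Of 109 genes of vesicle traffic 2 fell, the trafficking particle subunit 3 (CCRYP_015748; log2 fold change -1.54, adjusted p = 0.025) and RABC1 (CCRYP_018101; log2 fold change -1.05, adjusted p = 0.0364), with a median of -0.06. Of 216 genes of fatty acid and lipid metabolism 2 fell, the fatty acid elongase 5 (CCRYP_012657; log2 fold change -0.95, adjusted p = 0.00786) and glycolipid transfer protein 1 (CCRYP_003971; log2 fold change -0.87, adjusted p = 0.0366), with a median of -0.02. Of 64 transcription factors and light receptors outside the heat shock family 1 rose, Myb-like protein P, and of 174 genes of proteolysis, autophagy and cell death 1 fell, desumoylating isopeptidase 1 (CCRYP_002014; log2 fold change -0.75, adjusted p = 0.0261). The shares called in these lists were at or below 3.08%, near the 2.17% of all genes tested, although the splicing factors leaned lower as a list. None of the genes named here belongs to those called with any column left out.

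Genes without a protein name made up 64 of the falls and 14 of the rises. CCRYP_006475 had 5.24 and 9.68 CPM at 4 h, against 115 and 129 CPM at 2 h (log2 fold change -4.05 ± 0.43, adjusted p = 0.000399), a fall that was called with any column left out. Its level was 221 CPM at 1 h, 19.9 CPM in the seawater column and 2.05 and 3.303 CPM at 8 h. CCRYP_020249 had 0.308 and 1.12 CPM at 4 h, against 12.2 and 14.5 CPM at 2 h (log2 fold change -4.23 ± 0.64, adjusted p = 0.000494) and was also called with any column left out, though from few counts at 4 h. Among rises, CCRYP_001477 had 26.8 and 18.2 CPM at 4 h, against 9.46 and 7.23 CPM at 2 h (log2 fold change 1.44 ± 0.35, adjusted p = 0.0259). Another 3 genes called lower had no count in either 4 h column, and they are named after their values were seen, with no fold given. At 2 h, CCRYP_006640, named Copia protein after a retrotransposon, had 15 and 11 counts. The gene CCRYP_012250 had 7 and 24 counts at 2 h, and CCRYP_003025 had 8 and 7.

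**Figure D4:**
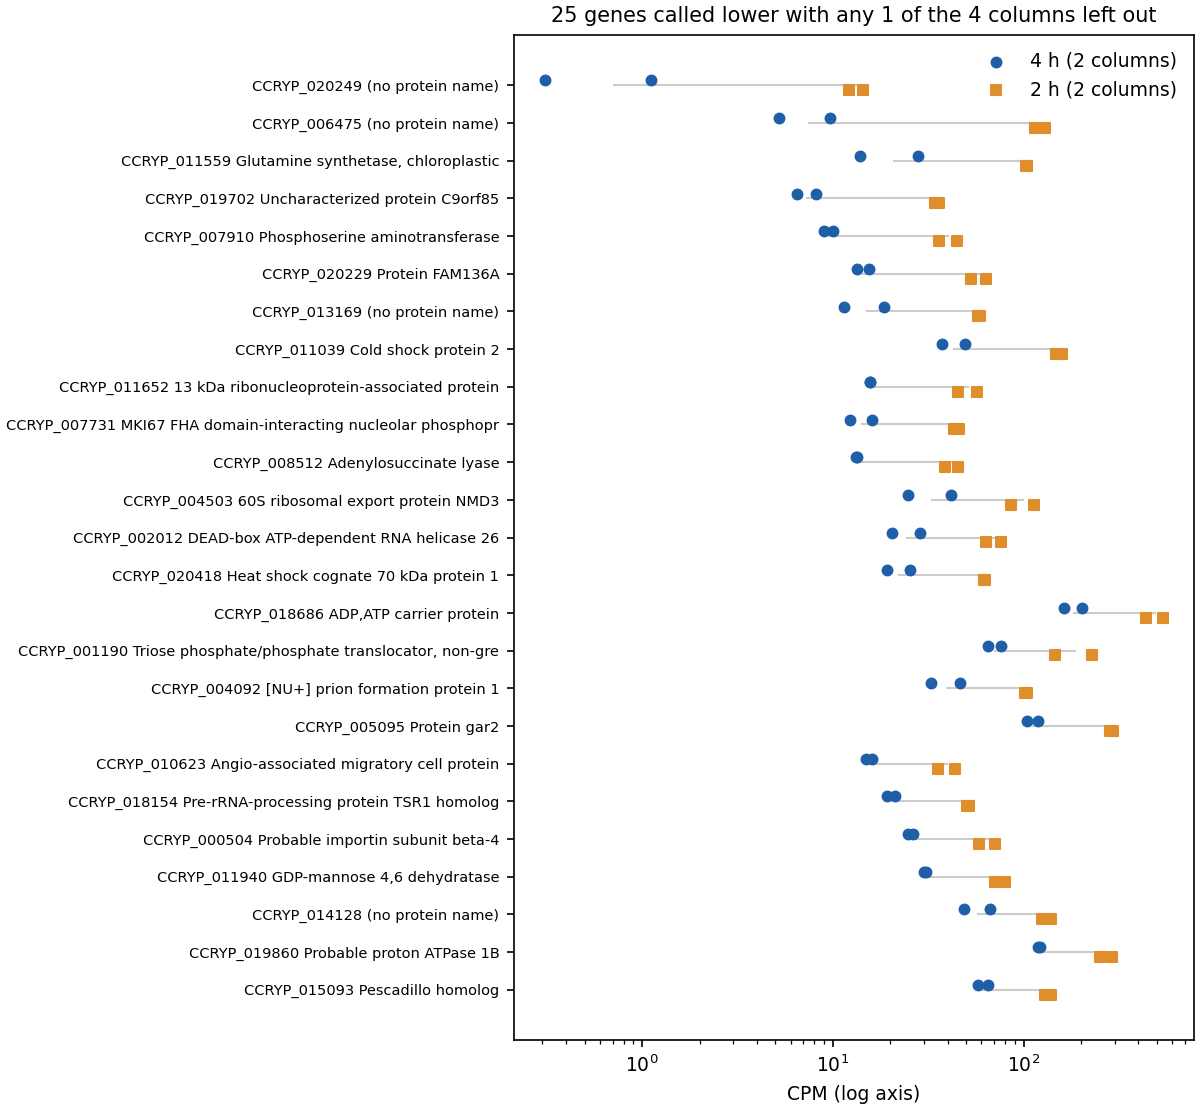
CPM on a log axis for the 25 genes called lower with any 1 of the 4 columns left out (circles, the 2 columns at 4 h; squares, the 2 columns at 2 h; grey lines join the group means), ordered by log2 fold change with the largest fall at the top. In every gene both circles lie left of both squares, and levels range between 0.308 and 537 CPM.

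Set against the other times, the genes that fell had mostly been above the seawater column at 2 h. Of the 250, 201 were below it at 4 h and had been above it at 2 h, while 47 were still at or above it at 4 h; together these are the 248 that had been above it at 2 h. These counts share the seawater column, the 2 h columns and the 4 h columns with each other and with the main comparison. They are given as descriptions, since genes picked as lower at 4 h than at 2 h lean to this order. The share of all genes tested with this order was not counted. In single-gene tests 5 of the 250 were called lower than the control at 4 h (1.07% of all genes tested were) and 81 higher at 2 h (2.94% of all genes tested were). Their median log2 difference from the seawater column was -0.29 at 4 h and 0.88 at 2 h, and their median at 8 h over 4 h was -0.12. Over all genes tested these medians were 0.00 at 4 h, 0.08 at 2 h and -0.03 for 8 h over 4 h. For the 21 genes that rose, these medians were 0.74 at 4 h, -0.24 at 2 h and -0.29 for 8 h over 4 h. The seawater control has 1 independent column, so its own spread was assumed to be like that of the other groups.

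By list, relative to the seawater column, the median log2 ratio of cytosolic ribosomal proteins was 0.22 at 0 min, 0.21 and 0.72 at 15 min, 1.35 and 1.21 at 30 min, 1.27 at 1 h, 0.80 and 0.87 at 2 h, -0.07 and 0.23 at 4 h, 0.06 and -0.21 at 8 h, and 0.09, 0.26 and -0.22 at 10 h. The 4 h columns thus stood at about the seawater level, and the 8 h and 10 h columns around them. Ribosome biogenesis stood at 0.47 and 0.40 at 2 h, -0.21 and -0.09 at 4 h, -0.31 and -0.23 at 8 h and between -0.37 and -0.36 at 10 h. Translation factors stood at 0.49 and 0.55 at 2 h, -0.06 and 0.01 at 4 h, and -0.09 and -0.12 at 8 h. Light-harvesting genes had another course, with -0.88 and -0.60 at 2 h, -0.94 and -0.50 at 4 h, and 0.02 and -0.07 at 8 h.

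**Figure D5:**
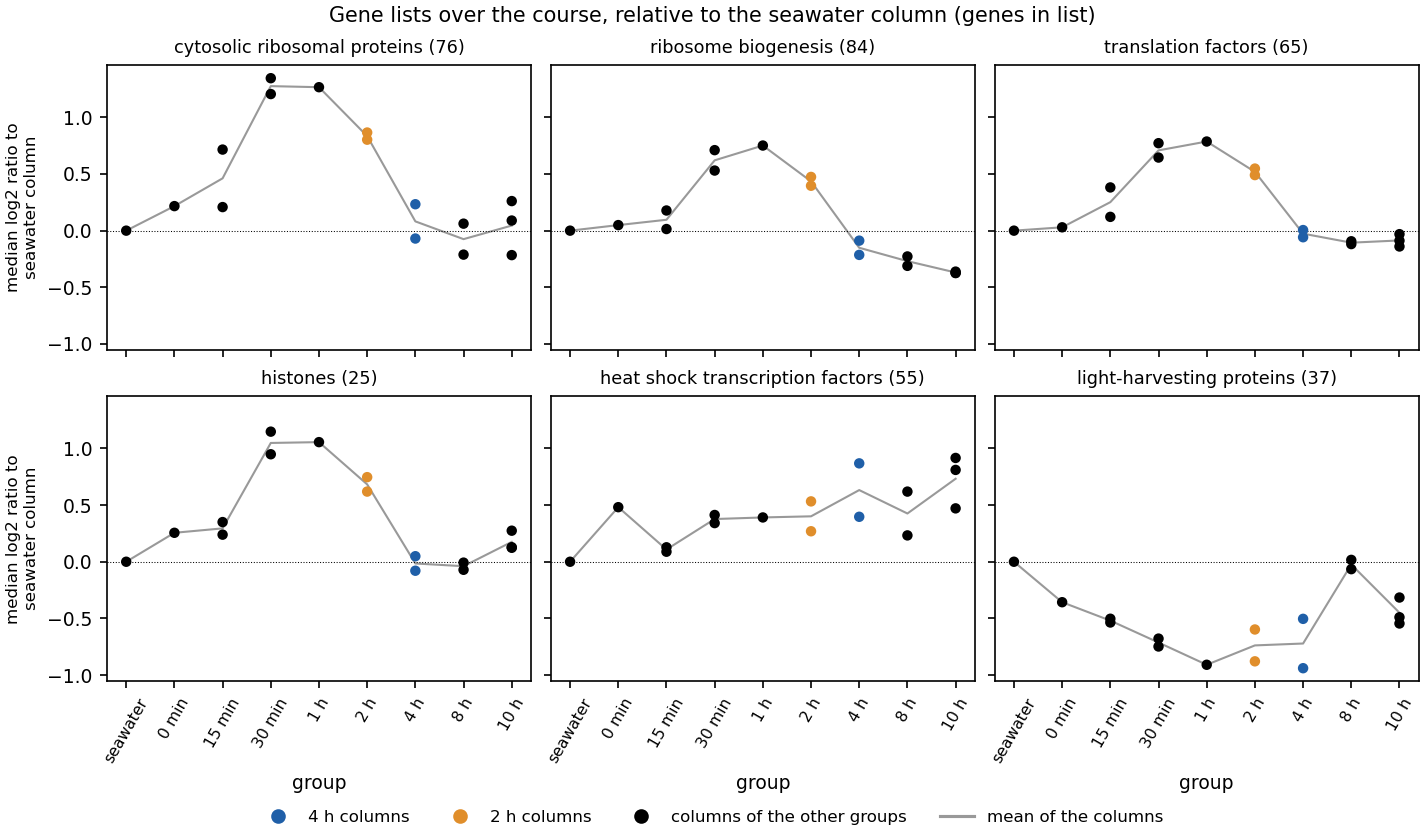
Median log2 ratio to the seawater column over the genes of 6 lists (number tested in brackets), 1 point for each of the 16 columns, with groups evenly spaced in time order and the line joining group means; blue marks 4 h and orange 2 h. Ribosomal proteins, ribosome biogenesis, translation factors and histones are near or below 0 at 4 h and above 0 at 2 h, while light-harvesting genes are below 0 at both times and near 0 at 8 h.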

How the data were processed

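RNA was extracted with a Qiagen RNeasy Plant kit and polyA libraries were made with the KAPA mRNA HyperPrep kit, per the labels' protocols. The deposited values are raw counts per gene, which the authors made with STAR 2.7.3a and HTSeq 0.11.3 per the submitters' processing notes, which also name edgeR. Neither the build nor the annotation nor the strand setting is given in the sources used here, and overlapping and antisense genes are therefore uncertain. Per the summary rows of the deposited table, multiply aligned and ambiguous reads were not counted for genes, so near-identical copies are undercounted. Their shares are of gene counts, multiply aligned reads and ambiguous reads together. The authors' deposited table of log2 fold changes and p-values against 0 min was not used. The IDs of the count table matched 0 of 14109 reference genes, so no coordinates or sequences are given.

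Columns were compared within each group over genes with at least 100 counts, and 11 of 27 columns that were copies or means of others were left out. The 16 remaining columns were fitted together in edgeR 4.0.16 (R 4.3.3, limma 3.58.1), with 1 coefficient per group, TMM scaling and the robust quasi-likelihood test. The filter on low counts was filterByExpr with a minimum count of 10 and a minimum total of 15, which left 12501 of 21250 genes. The contrast was 4 h minus 2 h, with 7 residual degrees of freedom and a common biological coefficient of variation of 14.2%. P-values were adjusted by Benjamini-Hochberg over all tested genes and called below 0.05. CPM are scaled by TMM, and ratios to the seawater column used a pseudocount of 0.5 CPM. At the totals per column given above, genes at a few CPM carry wide counting error. On simulated data with 200 of 12271 genes changed, the fit recovered 67% of 2-fold and 100% of 4-fold changes, with 9 false calls among 176. The simulation gave every gene the same common dispersion and changed no gene of low counts. Spread that differs between genes or columns was not simulated, so these shares need not hold for the real columns.

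Lists are words in protein names. A share called in a list that was added after values were seen is no comparison with all genes tested. The comparison, the lists and the rule for named genes were chosen with earlier results of these data known, some word patterns were tightened after the matched names had been seen, and 3 lists (nucleotide synthesis, nuclear transport, mitochondrial carriers) were added after values were seen. Named genes were, among called genes whose columns do not overlap and with a mean of at least 20 counts in the higher group, the 15 largest falls and rises with a protein name, the 5 most abundant each way, the 3 largest unnamed changes each way, up to 5 called members of each list by adjusted p, and without conditions the 2 most abundant members of each list. Others belong to the 25 genes called with any column left out or were named after their values were seen, which is not said at each of them. Examples are the second S26-B gene, N-acetylglucosamine-6-O-sulfatase and the further ribosome biogenesis members named without values. Alternatives were DESeq2 1.42.0, limma-voom, other scalings, filters and column sets, and the replicate number as a block.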

Additional observations from a re-analysis of the deposited data

How the results depend on the processing

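The number of genes called was 271 (250 lower, 21 higher), and every called gene that an alternative tested kept its direction in it. Leaving out 1 column at a time gave 34 to 411 calls, 33 to 267 lower and 1 to 144 higher. With all 27 columns as deposited, copies and means included, 2946 genes were called (1503 lower, 1443 higher), because repeated columns count as further replicates. The 4 h and 2 h columns alone gave 169 (164 lower, 5 higher), and no filter on low counts gave 568 (452 lower, 116 higher); the cause was not tested. DESeq2 gave 245 calls with 41 higher, and limma-voom 220 with 9 higher. With the replicate number as a block, 344 genes were called (311 lower, 33 higher), and 231 of the 271 were called again. The numbers share only replicate 3 between the 2 groups, whose deviations from the group means correlated at 0.239, and nothing in the labels says that a number marks a shared culture. The share of falls among calls was 92.3%, against 65% without replicate 3 at 4 h, 51% with 27 columns and 79.6% without a filter. Leaving out the 3 groups of 1 column, an alternative chosen after seeing the data, gave 268 calls. With 2 columns a group and at these totals of counts, changes of 2-fold or somewhat more can be missed, in abundant genes too. The abundant gene named sodium/sulfate cotransporter, given above, had an estimated fall of more than 2-fold and did not pass.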
